A study of Mus musculus with 4 samples.

Results

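The genes described here encode the nuclear subunits of mitochondrial respiratory complex I, measured in mouse heart RNA. They were chosen by name: a gene was taken when its probe set carried a single annotated symbol that began with Ndufa, Ndufb, Ndufc, Ndufs or Ndufv, and the Ndufaf assembly factors were left out. Each gene was represented by the probe set with the highest mean log2 value over the 4 arrays. The rule gave 36 of the 18193 genes with a single symbol, and these 36 had 78 such probe sets. Of the 36 genes 34 encode subunits of the complex. Ndufa11 and Ndufs6 had only probe sets annotated to several genes and were not used. The other members were Ndufa4, which is now counted as a cytochrome c oxidase subunit, and its paralogue Ndufa4l2.

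The series concerns cardiac gene regulation by the deacetylase Sirt1. Its 4 Affymetrix arrays hold total RNA from mouse heart: 2 carry the label NTg (wild type) and 2 the label Tg-Sirt1 (transgenic). The mice were killed with pentobarbital and the hearts snap frozen; the labels used here do not state age, sex, strain, transgenic line or the promoter that drives the transgene. Each array was taken as 1 heart, since the design speaks of 2 mice of each kind.

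Complex I, NADH:ubiquinone oxidoreductase, is the entry point for electrons from NADH into the respiratory chain and pumps protons across the inner mitochondrial membrane. Its matrix arm carries the NADH site, a chain of iron-sulphur clusters and the quinone site, and its membrane arm holds the pumping subunits, which are encoded by mitochondrial DNA. Accessory subunits form a shell around this core, and in the heart, a tissue packed with mitochondria, their transcripts are among the abundant nuclear messages.

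The arrays NTg 1 and Tg-Sirt1 1 cannot be treated as independent hearts on these values. Over all 45037 probe sets tested the SD of their difference was 0.0759 log2 units, against 0.342 to 0.405 in the 5 other pairs of arrays. The complex I genes showed the same: the largest difference within the pair was 0.08, for Ndufa4l2, and the other 35 genes differed by at most 0.03. No array was moved to another label. Sirt1 itself read 7.30 and 7.17 on the NTg arrays, 7.16 (labelled Tg-Sirt1 1) and 7.93 (Tg-Sirt1 2) on the others, so its transcript was not higher on both arrays of its label (log2 fold change 0.31, limma adjusted p = 0.996). The array medians lay between 6.22 and 6.30, and the SD over probe sets was 1.89 on NTg 2, lower than the 1.98 to 2.01 elsewhere. Cardiomyocyte markers were bright throughout, with all 8 between 12.24 and 14.15; in whole-heart RNA, fewer cells of a type and less RNA in each cell cannot be told apart.

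Between the labels, no complex I gene passed the test, and the differences were small. The highest log2 fold change of Tg-Sirt1 over NTg was 0.33, for Ndufs8, an iron-sulphur subunit of the quinone end, and the lowest was -0.10, for Ndufa4l2. In the limma test over all probe sets 0 of 36 members had an adjusted p under 0.05 (0% of all 45037 probe sets were called), and the adjusted p of each member was 0.996. Unadjusted limma p ran from 0.134 to 0.98, so that 0 members and 28 of all probe sets were under 0.05. The Tg-Sirt1 mean was higher in 27 and lower in 9 members, with a median of 0.045. Over all genes the median was 0.015 and 53.1% had a higher Tg-Sirt1 mean. Among 719 other genes with a mean log2 value of at least 11, which is the range of 32 of the members, the median was 0.10 and 72.5% were higher. The split of the members turned with the scaling. After a second quantile normalization 18 were higher and 18 lower (median -0.002; 58.6% of the other bright genes higher), and after centring on array medians 31 were higher and 5 lower (78.6%).

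Which arrays were kept moved the median of the 36 genes as well. It was 0.005 with 18 genes higher without NTg 2, and 0.125 with 28 higher without NTg 1. Leaving out the array labelled Tg-Sirt1 1 gave 0.0375 with 23 higher. Leaving out Tg-Sirt1 2 gave 0.05 with 29 higher, though that sets both NTg arrays against a near copy of NTg 1. A comparison of 2 against 2 arrays cannot give an exact permutation p below 0.333. With near-identical arrays under opposite labels the limma test has little power, and 0 calls is no evidence of equal expression. Single members moved as well: without NTg 2 the log2 fold changes given further on were 0.02 in Ndufs1, 0.01 in Ndufs3, 0.05 in Ndufa6, 0 in Ndufb5, 0.045 in Ndufb9 and 0.025 in Ndufab1, and without NTg 1 they were 0.11, 0.22, 0.24, 0.22, 0.175 and 0.245. Ndufc1 had 0.05 without Tg-Sirt1 2 and 0.24 without the other array of that label.

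**Figure D1:**
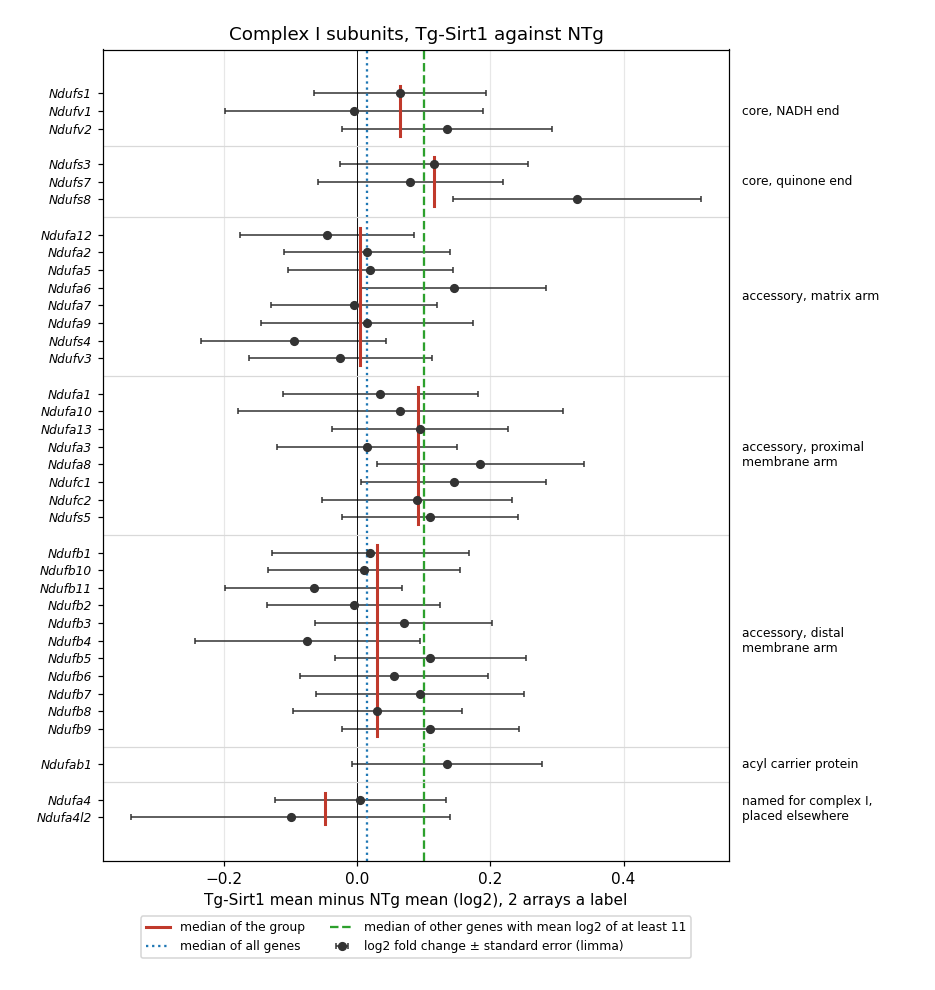
Log2 fold change of Tg-Sirt1 over NTg (x axis, log2 units) for the 36 complex I genes, ordered by subunit group, with bars for the limma standard error over 2 arrays a label. Red lines are group medians, the dotted line the median of all genes at 0.015 and the dashed line that of 719 other bright genes at 0.10; Ndufs8 lies farthest to the right at 0.33.

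In 7 members both Tg-Sirt1 arrays read above both NTg arrays, against 11.4% of all genes and 15.7% of the other bright genes. In 0 members both read below, against 9.3% and 3.06%. The 7 were Ndufs8, Ndufa5, Ndufa6, Ndufc1, Ndufs5, Ndufb9 and Ndufab1. In each of them the array labelled Tg-Sirt1 1 exceeded NTg 1 by only 0.01 to 0.03, which is within the differences of that near-identical pair. Ndufs8 and Ndufa6 alone of the 36 kept this separation under all 3 scalings; after the second quantile normalization 5 members lay above and 3 below without overlap.

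The values that follow are as deposited and from each gene's representative probe set, unless a scaling or another probe set is named. The place of NTg 2 depended on the scaling. As deposited it was the lowest array in 23 of 36 members (63.9%), against 67.5% of the other bright genes and 37.9% of all genes. It was the lowest in 28 members after centring and in 11 after the second quantile normalization.

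In their representative probe sets the core subunits of the NADH end did not move together. Ndufv1, which binds NADH and the flavin, read 12.39 (NTg 1), 12.07 (NTg 2), 12.40 (labelled Tg-Sirt1 1) and 12.05 (Tg-Sirt1 2). It was thus low on the second array of each label. Its log2 fold change was -0.005 ± 0.194 (SE), with 95% confidence limits of -0.50 and 0.49. The other Ndufv1 probe sets were nearly flat, with 11.45, 11.52, 11.47 and 11.42, and with 11.47, 11.44, 11.47 and 11.46. Ndufv2, the partner that carries an iron-sulphur cluster beside the flavin, read 12.98, 12.67, 12.98 and 12.94 in the same order. Here NTg 2 alone was low, and the log2 fold change was 0.135 ± 0.158 (SE). The other Ndufv2 probe sets did not share the low NTg 2, with 12.71, 12.68, 12.73 and 12.70, and with 12.49, 12.50, 12.52 and 12.72. Ndufs1, the large subunit with the next clusters of the chain, read 12.43, 12.34, 12.42 and 12.48, with a log2 fold change of 0.065 ± 0.129 (SE). The labels overlapped in the representative probe sets of these 3 genes.

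The quinone end held the member with the largest difference. Ndufs8, which carries iron-sulphur clusters near the quinone site, read 12.90 (NTg 1), 12.57 (NTg 2), 12.92 (labelled Tg-Sirt1 1) and 13.21 (Tg-Sirt1 2). NTg 2 was the lowest and Tg-Sirt1 2 the highest array, 0.64 log2 units apart, while the near-identical pair lay between them. The means were 12.735 ± 0.233 (SD, n = 2) in NTg and 13.065 ± 0.205 (SD, n = 2) in Tg-Sirt1, and the log2 fold change was 0.33 ± 0.186 (SE), with 95% confidence limits of -0.144 and 0.804. By limma its p was 0.134 unadjusted and 0.996 adjusted. It was 0.165 without NTg 2, 0.185 without Tg-Sirt1 2, 0.495 without NTg 1 and 0.475 when the array labelled Tg-Sirt1 1 was dropped. After a second quantile normalization NTg 2 was still 0.193 below NTg 1 and Tg-Sirt1 2 was 0.38 above the array labelled Tg-Sirt1 1. Ndufs7, which holds the last cluster before quinone, read 12.46, 12.48, 12.45 and 12.65, so that only Tg-Sirt1 2 stood apart. Ndufs3, a further subunit of the quinone end, read 12.64, 12.43, 12.67 and 12.63, so that only NTg 2 stood apart. After the second quantile normalization Ndufs7 was high on NTg 2 as well (12.406, 12.574, 12.40 and 12.662), and NTg 2 remained the lowest array for Ndufs3. Their log2 fold changes were 0.08 ± 0.139 (SE) and 0.115 ± 0.141 (SE).

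Ndufs8 and Ndufv1 lie on the same chromosome with 94724 bases between them. On Tg-Sirt1 2 their representative probe sets differed in opposite ways. Ndufs8 was 0.29 above and Ndufv1 0.35 below the array labelled Tg-Sirt1 1. The other Ndufv1 probe sets differed by only -0.05 and -0.01 between these arrays, and those of Ndufs8 by -0.22 to 0.26. In RefSeq's annotation of GRCm38.p6, Ndufs8 spans chr19:3908863-3912774 and Ndufv1 chr19:4007499-4012755, both on the minus strand. The 250 bases before each annotated start are shown because these are the subunits with the largest and one of the smallest fold changes, on the same chromosome. Capitals mark the CCAAT box, the letters CCAAT or the reverse complement ATTGG, of which the Ndufs8 window held 3 and the Ndufv1 window 0. Both are written 5′ to 3′ in the direction of transcription, from chr19:3912775-3913024 and chr19:4012756-4013005.
Ndufs8: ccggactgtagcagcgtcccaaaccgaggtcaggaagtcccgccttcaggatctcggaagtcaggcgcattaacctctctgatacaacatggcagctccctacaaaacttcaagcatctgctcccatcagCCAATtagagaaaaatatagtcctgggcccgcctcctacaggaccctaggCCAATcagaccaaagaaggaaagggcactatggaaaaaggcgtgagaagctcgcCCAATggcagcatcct
Ndufv1: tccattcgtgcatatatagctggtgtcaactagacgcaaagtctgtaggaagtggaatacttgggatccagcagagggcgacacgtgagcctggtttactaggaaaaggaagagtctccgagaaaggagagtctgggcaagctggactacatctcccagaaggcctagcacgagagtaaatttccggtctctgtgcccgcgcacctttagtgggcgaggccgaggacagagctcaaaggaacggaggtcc

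A promoter window of 300 bases, 250 before to 50 after the start, was found by symbol for 32 of the 36 genes and for 14453 measured genes in all. Each motif was searched on both strands. The CCAAT box was present in 9 of the 32 windows (28.1%, against 42% of all windows). The letters AAGATGGC, the core of the YY1 motif, were present in 6 of the 32 (18.8%, against 4.07%), in Ndufa3, Ndufa9, Ndufb8, Ndufc1, Ndufs4 and Ndufs7. The palindrome TGCGCA, the letters of 1 arm of the Nrf1 motif, was present in 9 (28.1%, against 12.8%), the short estrogen-related receptor motif AAGGTCA in 3 (9.38%, against 4.61%), the Sp1 box GGGGCGGGG in 5 (15.6%, against 20.3%) and the GABP motif CCGGAAGT in 1 (3.12%, against 6.62%). The full Nrf1 palindrome of 10 bases and the longer estrogen-related receptor motif TCAAGGTCA, which contains the short one, were present in 0 of the 32 windows and in 1.75% and 0.401% of all windows. These are matches of letters and no measure of binding.

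As deposited, the accessory subunits of the matrix arm were the flattest of the 5 groups in their median. It was 0.005 over 8 genes with 4 higher and 4 lower. After the second quantile normalization 1 was higher and 7 lower (median -0.059). The NADH end (-0.008) and the distal membrane arm (-0.005) were then flatter. Ndufa5, a small subunit packed against the quinone end, read 12.43 on both NTg arrays and 12.45 on both Tg-Sirt1 arrays. This is a range of 0.02 over 4 arrays. It did not hold for its second probe set (11.87, 12.02, 11.88 and 11.75) or after the second quantile normalization, where NTg 2 was 0.15 above NTg 1. Ndufa2, which has a thioredoxin-like fold, read 11.78 to 11.82 on the 4 arrays, and Ndufa7 12.44 to 12.48. Ndufa6, which binds the acyl carrier protein in this arm, read 12.47, 12.28, 12.49 and 12.55, with the highest log2 fold change of the group at 0.145 ± 0.139 (SE). Ndufs4, a late-added subunit whose loss causes a Leigh-like disease in mice, read 11.27, 11.28, 11.28 and 11.08, low on Tg-Sirt1 2 alone. Its log2 fold change of -0.095 ± 0.139 (SE) was the lowest of the group. A dimmer Ndufs4 probe set went the other way on that array, with 7.84 against 7.18 to 7.36 on the others. Ndufa9, a subunit with a reductase-like fold near the quinone site, read 12.38, 12.15, 12.39 and 12.17. It resembled the representative probe set of Ndufv1 in being low on the second array of each label. After the second quantile normalization these Ndufa9 differences were -0.058 and -0.14. Ndufa12 read 12.32, 12.32, 12.34 and 12.21, and Ndufv3, a small partner of the flavin subunit, 12.75, 12.90, 12.74 and 12.86.

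In the proximal membrane arm all 8 measured accessory subunits had a higher Tg-Sirt1 mean, with a median of 0.0925 and log2 fold changes from 0.015 to 0.185. Among the other bright genes 72.5% were higher, with a median of 0.10. After the second quantile normalization 7 of the 8 subunits were higher and 1 lower (median 0.032). None passed the test. Ndufa8, a subunit on the intermembrane side, read 12.57 (NTg 1), 12.29 (NTg 2), 12.57 (labelled Tg-Sirt1 1) and 12.66 (Tg-Sirt1 2). Its log2 fold change of 0.185 ± 0.155 (SE) rested on NTg 2 and was 0.045 without that array. Ndufc1 read 12.65, 12.61, 12.68 and 12.87 and Ndufc2, its neighbour at the inner end of the arm, 12.22, 12.22, 12.20 and 12.42. In both representative probe sets Tg-Sirt1 2 was high and the other 3 arrays were close. After the second quantile normalization NTg 2 was second to it in both. The other Ndufc1 probe set read 12.21, 12.29, 12.21 and 12.25. Further bright Ndufc2 probe sets were low on NTg 2, with 12.19, 11.74, 12.17 and 12.11, and with 11.19, 10.83, 11.16 and 11.30. The log2 fold change of Ndufc1 was 0.145 ± 0.139 (SE). Ndufa13, first known as a cell death regulator, read 12.97, 12.89, 12.97 and 13.08, and Ndufs5, a disulphide-stabilised subunit of the intermembrane side, 8.46, 8.38, 8.47 and 8.59. This was the only single-symbol probe set of Ndufs5 and was dimmer than the representatives of the rest of the group. Ndufs5 was also among the genes on probe sets annotated to several genes, which were not used.

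Ndufa10, which has a nucleoside kinase fold, had the widest range of this group. It read 12.70 and 12.68 on the near-identical pair, 12.15 on NTg 2 and 12.30 on Tg-Sirt1 2, a range of 0.55, and its log2 fold change was 0.065 ± 0.244 (SE). Without NTg 2 this value was -0.21 and without NTg 1 it was 0.34. The low values on the second array of each label were also found after a second quantile normalization, with differences of -0.378 and -0.326 from the first arrays. The dimmer Ndufa10 probe set did not share the low value of Tg-Sirt1 2 and read 10.15, 9.88, 10.18 and 10.30. Ndufa1, a short single-span subunit encoded on the X chromosome, read 13.33, 13.14, 13.35 and 13.19. Ndufa3, another short single-span subunit, ran the other way from Ndufa1, with 13.24, 13.34, 13.24 and 13.37.

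**Figure D2:**
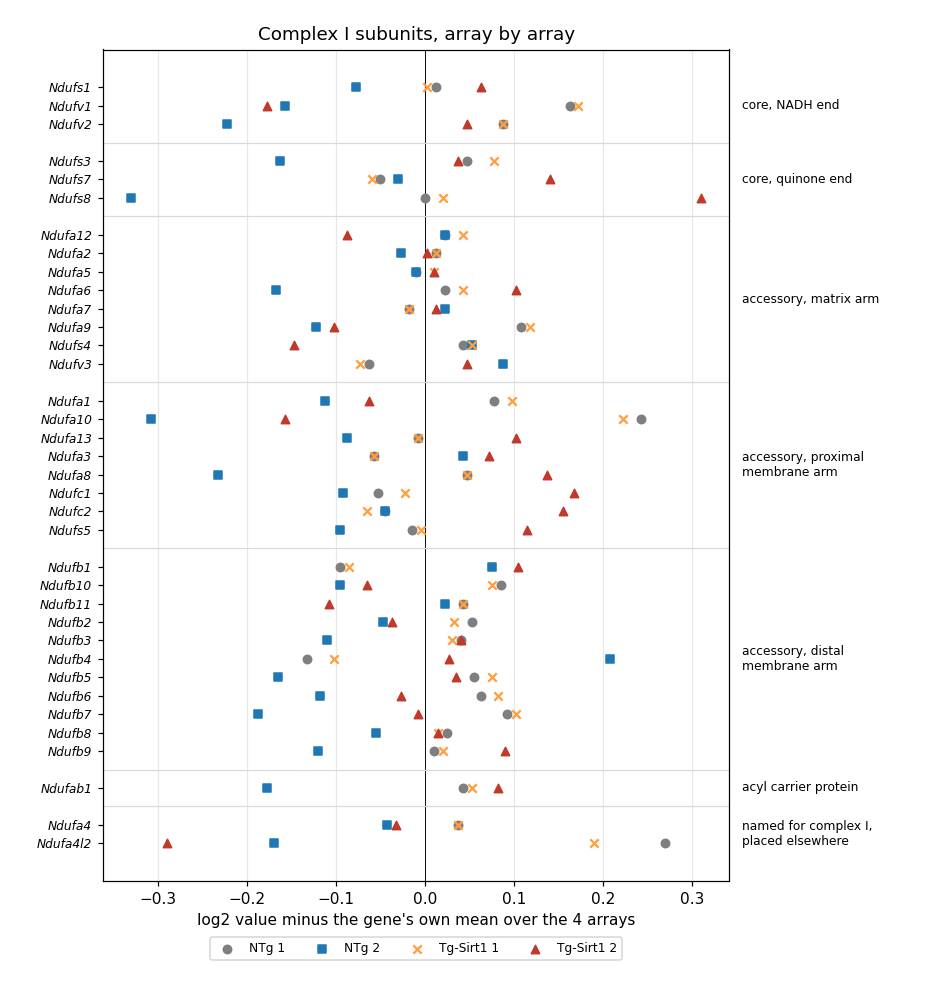
Each complex I gene's log2 value on each of the 4 arrays minus that gene's own mean (x axis, log2 units), by subunit group; grey circles are NTg 1, blue squares NTg 2, orange crosses Tg-Sirt1 1 and red triangles Tg-Sirt1 2. The grey and orange marks fall together in nearly every row (within 0.03 log2 units in all but Ndufa4l2). NTg 2 is the lowest array in 23 of 36 genes (63.9%) and Tg-Sirt1 2 the highest in 13 (36.1%). Among the 719 other bright genes the same arrays are lowest in 67.5% and highest in 37.3%.

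The distal membrane arm is covered by the Ndufb subunits, and 8 of its 11 genes had a higher and 3 a lower Tg-Sirt1 mean, with a median of 0.03. After the second quantile normalization 5 were higher and 6 lower (median -0.005), and NTg 2 was the lowest array in 3 of the 11 genes. As deposited NTg 2 was the lowest in 8 of them (72.7%), against 67.5% of the other bright genes. Ndufb9, the LYR-motif protein that anchors the acyl carrier protein in this arm, read 13.42 (NTg 1), 13.29 (NTg 2), 13.43 (labelled Tg-Sirt1 1) and 13.50 (Tg-Sirt1 2). Ndufb5, a single-span subunit, read 12.85, 12.63, 12.87 and 12.83. Both had a log2 fold change of 0.11, with standard errors of 0.133 and 0.143. NTg 2 was the lowest array in the representative probe set of each of these genes, also under both other scalings. A second Ndufb5 probe set read 11.89, 11.98, 11.88 and 11.66, highest on NTg 2, with a log2 fold change of -0.165. A second Ndufb9 probe set read 13.13, 12.96, 13.15 and 12.93, lowest on Tg-Sirt1 2, with a log2 fold change of -0.005.

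Ndufb7 (13.03, 12.75, 13.04 and 12.93) and Ndufb10 (12.26, 12.08, 12.25 and 12.11), both disulphide-stabilised proteins of the intermembrane side, were also lowest on NTg 2. So were Ndufb2 (12.60, 12.50, 12.58 and 12.51), Ndufb3 (12.06, 11.91, 12.05 and 12.06) and Ndufb6 (12.16, 11.98, 12.18 and 12.07), small membrane-anchored subunits. Of these 5 genes only Ndufb7 was lowest on NTg 2 after the second quantile normalization. Ndufb8, whose protein is widely used as an antibody marker of assembled complex I, read 13.33, 13.25, 13.32 and 13.32, a range of 0.08. Ndufb11, also encoded on the X chromosome, was low on Tg-Sirt1 2 alone in its representative probe set, with 12.97, 12.95, 12.97 and 12.82. A second probe set went the same way, with 12.80, 12.83, 12.83 and 12.73. Another was low on NTg 2 instead, with 12.59, 12.37, 12.60 and 12.58 and a log2 fold change of 0.11.

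The remaining Ndufb genes had dimmer probe sets. Ndufb1 read 8.05, 8.22, 8.06 and 8.25, higher on the second array of each label. The only single-symbol probe set of Ndufb4 read 4.70, 5.04, 4.73 and 4.86, below the median of every array, and its log2 fold change was -0.075 ± 0.169 (SE), the lowest of the group. Its other probe sets were annotated to several genes and were not used, so this value says little about Ndufb4.

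The acyl carrier protein Ndufab1, which also serves mitochondrial fatty acid synthesis and binds at both arms, read 12.87 (NTg 1), 12.65 (NTg 2), 12.88 (labelled Tg-Sirt1 1) and 12.91 (Tg-Sirt1 2), with a log2 fold change of 0.135 ± 0.143 (SE). A second Ndufab1 probe set behaved unlike the first. It read 9.50, 10.17, 9.56 and 8.22, so that it was highest on NTg 2 and lowest on Tg-Sirt1 2, with a log2 fold change of -0.945. By limma its p was 0.108 unadjusted and 0.996 adjusted. A dimmer one was highest on Tg-Sirt1 2, with 6.14 there and 5.38 to 5.59 elsewhere. The array Tg-Sirt1 2 also had the largest difference between 3′ and 5′ control probe sets, 1.92 log2 units for Actb (1.22 to 1.44 elsewhere) and 1.34 for Gapdh (0.18 to 0.69 elsewhere); the part of this in the Ndufab1 values was not tested.

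Across the other members the probe sets of a gene often differed as much from each other as the arrays did. Of 36 genes 20 had several probe sets, and 18 of the 42 further probe sets, from 15 genes, did not share the sign of the representative, counting 1 of Ndufa7 at a log2 fold change of 0. Of these 42, 0 had an unadjusted limma p under 0.05. Ndufs8 was the most uniform of the genes with large values: 5 of its 6 probe sets had positive log2 fold changes, from 0.13 to 0.33, NTg 2 read below the near-identical pair in all 6, and the dimmest had -0.03. In Ndufs7 the second probe set read 12.35, 11.95, 12.36 and 12.53, with NTg 2 low where the representative probe set was flat, and had a log2 fold change of 0.295.

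**Figure D3:**
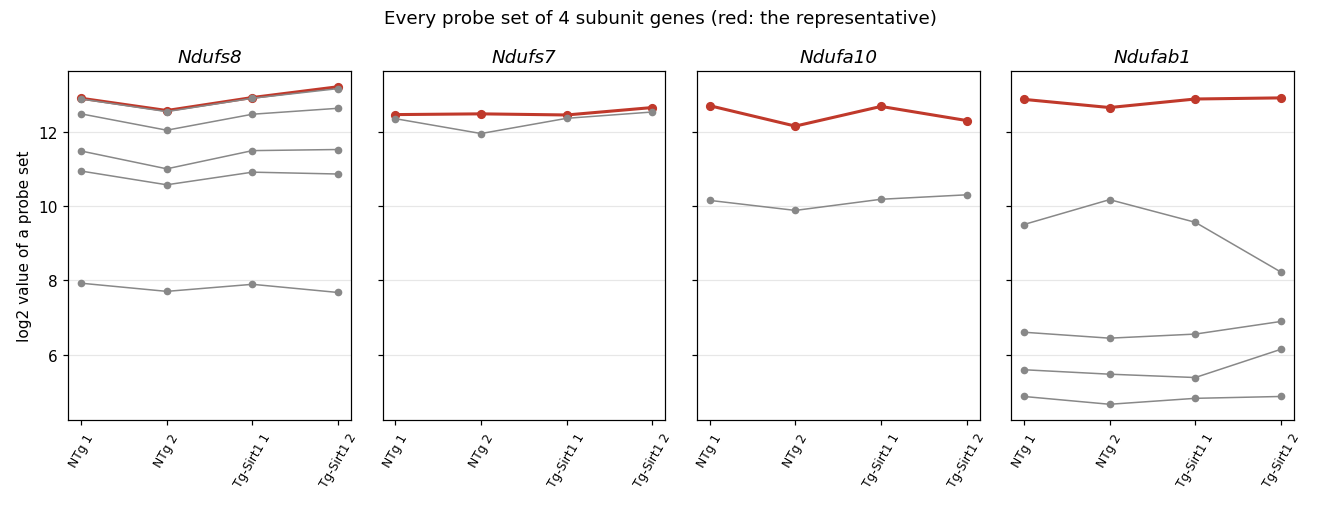
Log2 value (y axis) of every single-symbol probe set of Ndufs8, Ndufs7, Ndufa10 and Ndufab1 on the 4 arrays (x axis), 1 line for each probe set with the representative in red. The lines of Ndufs8 run in parallel except on Tg-Sirt1 2, and the second line of Ndufab1 drops from 10.17 on NTg 2 to 8.22 on Tg-Sirt1 2 while the red line stays between 12.65 and 12.91.

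The 2 genes that share the name but not the complex differed in their spread. Ndufa4, the cytochrome c oxidase subunit, read 12.92, 12.84, 12.92 and 12.85, with a log2 fold change of 0.005 ± 0.129 (SE). Ndufa4l2, the hypoxia-inducible paralogue, read 8.62 (NTg 1), 8.18 (NTg 2), 8.54 (labelled Tg-Sirt1 1) and 8.06 (Tg-Sirt1 2). The second array of each label was low and the labels overlapped, with a log2 fold change of -0.10 ± 0.239 (SE). Endothelial markers also had their lowest list medians on these arrays, 8.845 on Tg-Sirt1 2 and 9.115 on NTg 2, against 9.265 and 9.245 on the pair, and the part of this in the Ndufa4l2 values was not tested.

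Differences between single arrays, which have no replicate check, showed where the members departed from each other. Against NTg 1, NTg 2 was lower in 26, higher in 7 and equal in 3 of the 36 genes, with a median of -0.095, a direction that turned after a second quantile normalization (median 0.036, 14 lower and 22 higher). The other 719 bright genes were lower by more, with a median of -0.22 and 81.2% lower, and -0.04 after the second normalization. More than 1.2-fold lower on NTg 2 were 7 members, against 23.1% of all genes, and more than 1.2-fold higher was 1, the dim Ndufb4, against 17.1%. The 7 were Ndufa10, Ndufa4l2, Ndufs8, Ndufv1, Ndufv2, Ndufa8 and Ndufb7. Of these, Ndufb7, Ndufa8, Ndufv1, Ndufv2, Ndufs8, Ndufa10 and Ndufa4l2 were below NTg 1 after the second normalization as well, by 0.102 to 0.378.

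Between the Tg-Sirt1 arrays, Tg-Sirt1 2 was higher in 17 and lower in 17 members, with a median of 0 against 0.04 over all genes. It was higher in 23 and lower in 13 after the second quantile normalization (median 0.056), and higher in 20 and lower in 16 after centring. More than 1.2-fold lower there were 3 members, Ndufa4l2, Ndufa10 and Ndufv1, against 10.3% of all genes, and 1 was more than 1.2-fold higher, Ndufs8, against 15.7%. The sign of these 4 differences was the same in all 3 scalings. Between Tg-Sirt1 2 and NTg 2, which share no near-identical values, 28 members (77.8%) were higher and 8 lower with a median of 0.08. Of the other bright genes 72.3% were higher, with a median of 0.20. After the second quantile normalization 18 members were higher and 17 lower. As deposited, 4 members were more than 1.2-fold higher on Tg-Sirt1 2 than on NTg 2, against 26.9% of all genes. More than 1.2-fold lower were 0 members, against 17%. These 4 were Ndufs8, Ndufa8, Ndufv2 and Ndufa6. Within the near-identical pair 0 members were past 1.2-fold, against 0.236% of genes higher and 0.126% lower on the array labelled Tg-Sirt1 1.

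**Figure D4:**
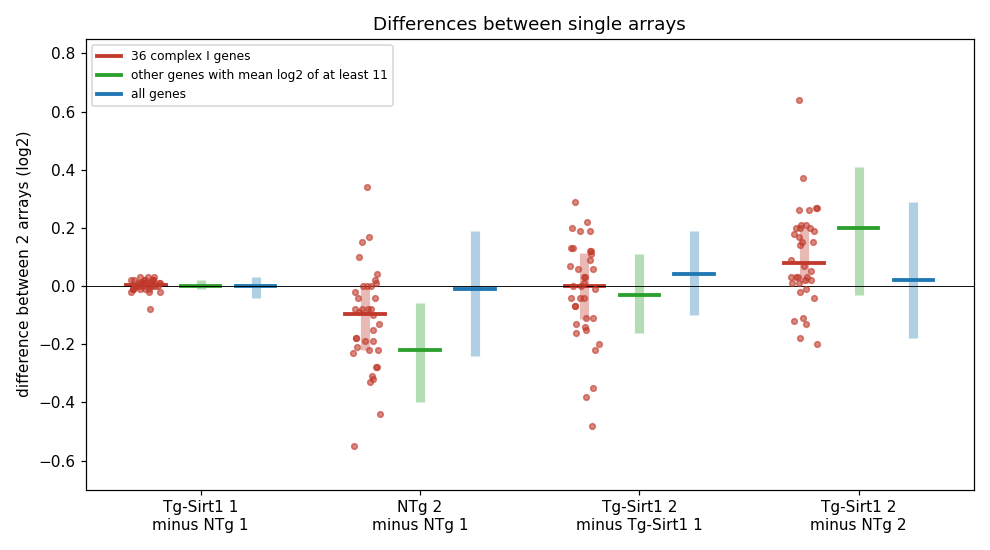
Difference in log2 units (y axis) between 2 single arrays for 4 pairs of arrays (x axis): red points are the 36 complex I genes, horizontal marks are medians and vertical bars run from the 25th to the 75th percentile for the complex I genes, 719 other bright genes and all genes. In the pair Tg-Sirt1 1 and NTg 1 the 36 complex I genes differ by at most 0.08, and NTg 2 minus NTg 1 has medians of -0.095, -0.22 and -0.01.

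The members varied little over the 4 arrays. Their median range, highest minus lowest array, was 0.205 log2 units, against 0.34 over all genes and 0.36 over the other 719 bright genes. In 25 of 36 members, or 69.4%, the range was under 0.25, against 32.5% of all genes and 28.4% of the other bright genes, and after a second quantile normalization it was 69.4%, 36.9% and 41%. After centring on array medians it was 38.9% of the members, 32.7% of all genes and 22.9% of the other bright genes. The share also rose with level among genes outside the complex: as deposited it was 21% of 461 genes with means from 11 to 12, 32.8% of 189 from 12 to 13 and 65.2% of 69 above 13. The members numbered 2 of 2, 17 of 26 (65.4%) and 4 of 4 in these bands. The ranges of Ndufa5 (0.02), Ndufa2 and Ndufa7 (both 0.04) were the smallest, and those of Ndufs8 (0.64), Ndufa4l2 (0.56) and Ndufa10 (0.55) the largest. Between the 2 ends, Ndufa8 (0.37), Ndufv1 (0.35), Ndufb4 (0.34) and Ndufv2 (0.31) also exceeded 0.30. Subunits of the other respiratory complexes had median ranges of 0.28 in complex II (4 genes), 0.23 in complex III (9), 0.14 in complex IV (11) and 0.20 in complex V (15).

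**Figure D5:**
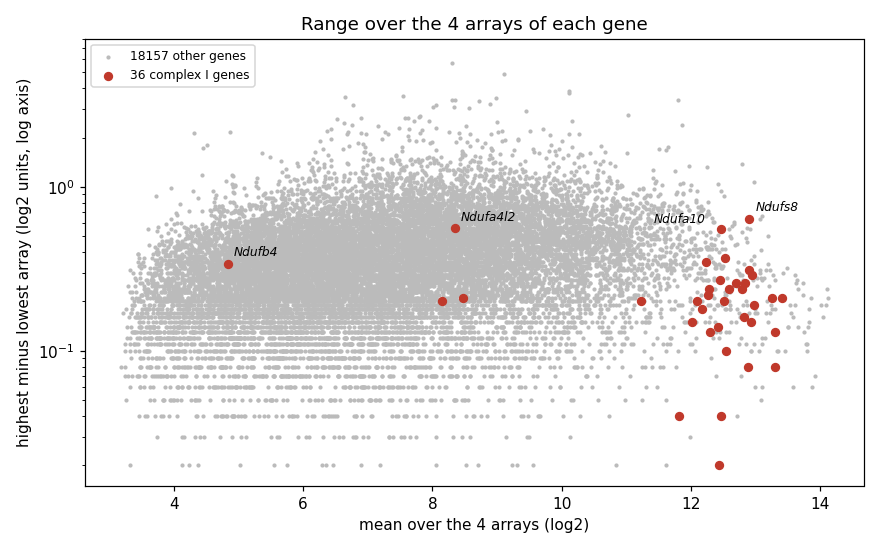
Range over the 4 arrays (y axis, log2 units on a log axis) against the mean log2 value (x axis) for the 36 complex I genes in red and 18157 other genes in grey, of which the 2 with a range of 0 cannot be drawn on a log axis. Most red points lie between means of 11 and 13.5 and below a range of 0.40, with Ndufs8, Ndufa4l2 and Ndufa10 above the others.

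Genes that build or regulate the complex did not pass the test either. Of 19 measured assembly factors 15 had a higher and 4 a lower Tg-Sirt1 mean, with a median of 0.175 (0.079 once quantile normalized again, with 13 higher and 6 lower) and 0 past the test. The 2 of lowest p were the intermediate assembly factor Ndufaf1, which read 9.38, 9.09, 9.39 and 9.77 (log2 fold change 0.345), and Foxred1, an assembly flavoprotein, with 8.53, 8.21, 8.57 and 8.77 (0.30); both were lowest on NTg 2 and highest on Tg-Sirt1 2. With single arrays left out they ranged from 0.155 to 0.535 and from 0.14 to 0.46. The other complexes had medians of 0.0425 for complex II (3 of 4 higher), 0.075 for complex III (8 of 9), 0.03 for complex IV (7 of 11) and 0.005 for complex V (8 of 15), with 0 members past the test in each. Their genes of lowest p were Sdhd (0.255) and Sdha (-0.11), Uqcr10 (0.27) and Uqcrq (0.125), Cox8a (0.25) and Cox7c (0.175), and Atp5l (0.155) and Atp5g3 (-0.125). Without NTg 2 the values of Sdhd, Uqcrq, Cox8a and Atp5l were 0.025, 0.03, 0.03 and -0.01, and without Tg-Sirt1 2 those of Uqcr10, Cox7c and Atp5g3 were 0.08, -0.025 and 0.01. Sdha moved between -0.17 and -0.05, and Sdha (0.225) and Uqcr10 (-0.02) changed sign without _x_at, _s_at and _a_at probe sets. Among 11 transcription factors and coactivators of mitochondrial genes 5 were higher and 6 lower, with a median of -0.02. The 2 of lowest p were Gabpa, a subunit of the GABP factor, at 0.47 (0.25 to 0.69 with single arrays left out) and the nuclear receptor Ppara at 0.285 (0.12 to 0.45, and -0.36 as the mean over its probe sets). The largest difference of the list was that of the coactivator Ppargc1b at -0.595, named here after its values were seen: it read 11.03, 10.84, 11.06 and 9.62 and was low on Tg-Sirt1 2 alone. Every gene named in these lists had an adjusted limma p of 0.996.

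Markers of other cells moved between the arrays that set the values above. The fibroblast list (8 genes, each with a higher mean under the Tg-Sirt1 label, median 0.28) had medians of 11.44 (NTg 1), 10.59 (NTg 2), 11.435 (labelled Tg-Sirt1 1) and 11.265 (Tg-Sirt1 2). The 8 cardiomyocyte markers had list medians of 13.90, 13.785, 13.885 and 13.76 in the same order, the 7 macrophage markers 7.59, 7.05, 7.47 and 7.90, and the 6 measured neutrophil markers 6.56, 7.075, 6.495 and 6.575. The 3 measured erythroid markers had 6.61, 6.64, 6.74 and 6.85, the 8 skeletal muscle markers 5.595, 5.755, 5.595 and 5.445, and the 6 measured adipocyte markers 7.38, 6.73, 7.45 and 6.875. Except for fibroblasts and cardiomyocytes, these lists were split between NTg 1 and NTg 2. On NTg 2, 4 macrophage markers were lower and 3 higher, and 1 neutrophil marker was lower and 5 higher. Lower and higher there were 1 and 2 erythroid, 2 and 6 skeletal muscle, and 4 and 2 adipocyte markers. The skeletal muscle marker Myl1 read 12.05 on NTg 1 and 10.85 on NTg 2. The part of the markers in the complex I values was not tested.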

How the data were processed

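Per the labels, total RNA from 4 mouse hearts was measured, 2 labelled NTg and 2 labelled Tg-Sirt1, and samples were grouped by their titles. The values the authors deposited were on the log2 scale, 1 per probe set and array, and RMA and Affymetrix Expression Console are listed, with no version, per the submitters' processing notes. RMA includes background correction and quantile normalization, so a shift shared by all transcripts is not seen. Scanner files were not used here; signal over background is unknown, and having 4 arrays limits the precision.

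Of 45101 probe sets 64 controls were left out. Symbols came from the platform annotation: 34945 probe sets had 1 symbol, 932 several and 9160 none. All 36 members matched RefSeq by Entrez identifier with 0 changed symbols. The fit was limma 3.58.1 (lmFit, eBayes) under R 4.3.3 over 45037 probe sets, two-sided, with Benjamini-Hochberg adjustment over all of them and calls at 0.05. Residual degrees of freedom were 2, with 3.1 from the prior. The fit was also run on simulated arrays. These were independent of each other, unlike the near-identical pair, so that run cannot show the power of the test on these data. Promoter windows came from RefSeq, GRCm38.p6.

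The members, lists and tests were chosen with earlier results of these data known. All members are named, with fold changes for core subunits, the extremes of each accessory group, the largest changes and ranges, and the 2 genes of lowest p in each pathway list. Bright genes (mean log2 of at least 11), bands of level, the 1.2-fold and 0.25 limits and the search for motifs were chosen after seeing the data. Alternatives were a block for the replicate number, single arrays left out, the near-identical arrays counted once, scaling, dim probe sets, the choice of probe set and the prior.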

Additional observations from a re-analysis of the deposited data

How the results depend on the processing

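Under 13 other settings 0 of the members passed the test, with a lowest adjusted limma p of 0.511. The labels share replicate numbers, but nothing says that a number marks a shared litter or day. Deviations of same-numbered arrays from their label means had a correlation of 0.293. With 2 arrays a label this value is the same for both numbers by construction. The near-identical pair alone can make it positive, so it cannot show whether same-numbered arrays deviated together. With the replicate block 0 members passed (lowest adjusted p 0.931), and the median of 0.045 and the 27 higher genes were the same. The cause of the changes below was not tested. Leaving out 1 array each gave 18 to 29 members higher and a median over all members of 0.005 to 0.125; group medians ran from -0.02 to 0.155 (NADH end), 0.09 to 0.22 (quinone end), -0.0025 to 0.02 (matrix arm), 0.05 to 0.16 (proximal) and -0.01 to 0.10 (distal). The log2 fold change changed sign for some array left out in Ndufv1 (-0.18 to 0.17), Ndufv2 (-0.02 to 0.29), Ndufs7 (-0.02 to 0.18), Ndufs4 (-0.195 to 0.005), Ndufa3 (-0.05 to 0.08), Ndufa10 (-0.21 to 0.34), Ndufb4 (-0.245 to 0.095), Ndufa4 (-0.035 to 0.045), Ndufa4l2 (-0.34 to 0.14), Atp5l (-0.01 to 0.32), Atp5g3 (-0.26 to 0.01), Cox7c (-0.025 to 0.375) and Sirt1 (-0.075 to 0.695). With the near-identical arrays counted once as NTg, Ndufa10 had -0.12 and Ndufa4 -0.03. Counted once as Tg-Sirt1, the median over members was 0.1262, with 0.1525 (NADH end), 0.2125 (quinone end) and 0.1025 (distal), and Ndufv1 had 0.1525, Ndufa3 -0.035 and Ndufa4l2 0.14. After a second quantile normalization the median was -0.0022 and that of the NADH end -0.0081, Ndufs1 had -0.0081, Ndufa3 -0.0112 and Ndufa4 -0.0312, and the medians of differences between arrays were 0.0356 (NTg 2 minus NTg 1), 0.0556 (Tg-Sirt1 2 minus Tg-Sirt1 1), 0.0031 (Tg-Sirt1 2 minus NTg 2), -0.0469 (Tg-Sirt1 1 minus NTg 2) and 0.055 (Tg-Sirt1 2 minus NTg 1). Centring on array medians gave -0.165, 0.16 and 0.145 for NTg 2 minus NTg 1, Tg-Sirt1 2 minus NTg 2 and Tg-Sirt1 1 minus NTg 2, and 0.03 for Ndufv1. With the mean over all probe sets Ndufs4 had 0.015, Ndufa3 -0.01, Ndufb5 -0.0275, Ndufab1 -0.06, Sdha 0.0425, Uqcrq -0.0075 and Ppara -0.36. Without _x_at, _s_at and _a_at probe sets, which left 29 members, the quinone end had 0.265, Ndufa3 -0.02, Ndufb9 -0.005, Ndufab1 -0.945, Sdha 0.225, Uqcr10 -0.02 and Cox7c -0.02, with -0.18 for NTg 2 minus NTg 1 and 0.20 for Tg-Sirt1 1 minus NTg 2. The bright subunits of the complex alone, chosen after seeing the data, had a median of 0.065 with 24 of 31 higher. Detection calls were not used here, so dim values such as those of Ndufb4 have no stated signal over background.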
